A study of Mus musculus with 4 samples.

Results

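Potassium channel genes were followed in proliferating C2C12 cells, a mouse myoblast line of the C3H strain, with and without forced expression of C/EBPβ, a basic leucine zipper transcription factor. Members were the genes whose symbol begins with Kcn, then letters and a number, and they were joined to the count tables by Ensembl identifier. The rule found 98 members among 49585 genes. Of the 98 members, 29 had 0 counts in every library, 40 had some counts but too few to be tested, and 29 were tested.

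The 4 libraries fell into 2 groups of 2. The control group carried the empty retroviral vector pLXSN, and the other group was transduced to overexpress C/EBPβ. Both groups were selected for 7 days in G418 at 1200 µg/ml, kept as pools of stable cells rather than clones, and left to proliferate for 48 hours in medium with 10% fetal bovine serum before RNA was taken. Nothing in the labels tells whether the 2 libraries of a group stem from different transductions, so p-values here reflect the spread between libraries and that spread may be technical.

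Potassium channels let potassium leave the cell down its gradient and so hold the membrane potential negative. Inward rectifiers and tandem-pore channels carry the resting conductance, voltage-gated channels end depolarisation, and calcium-activated channels tie potassium efflux to intracellular calcium. Accessory subunits have no pore of their own and change the gating or traffic of the pore subunits they bind. In human myoblasts, hyperpolarisation through the ether-a-go-go channel and the inward rectifier encoded by the Kcnj2 orthologue precedes fusion, and in smooth muscle the large-conductance calcium-activated (BK) channel with its β1 subunit opposes contraction.

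Cebpb, the gene that was overexpressed, checked the labels. Its level was 85.0 and 76.8 CPM (counts scaled to a common library size) in the empty vector libraries, and 483 and 473 CPM in the C/EBPβ libraries. Library totals were 40912955 and 37566321 counts for empty vector and 38656497 and 92027838 counts for C/EBPβ. One library, C/EBPβ replicate 2, was thus the deepest, and 1 count was worth 0.0109 CPM there and between 0.0244 and 0.0266 CPM in the other libraries. Myoblast marker RNA was present in every library, with all 9 listed markers tested, but its summed level was 3536 and 3835 CPM with empty vector and 2000 and 2370 CPM with C/EBPβ. Of those 9 markers, 6 fell (Myog, Itga7, Cdh15, Chrna1, Des and Myod1) and 2 rose (Pax7 and Myf5). The largest fold change among them was in Myog, from 61.0 and 51.4 CPM to 5.32 and 10.9 CPM.

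Potassium channel genes changed in both directions. Of the 29 tested members, 13 rose and 6 fell with C/EBPβ at an adjusted p of 0.05 (quasi-likelihood test of edgeR, Benjamini-Hochberg adjustment over all 15078 genes tested, which gave every adjusted p below unless another source is named). The called share was 65.5% of tested members, and 24.9% of all genes tested were called, 14.1% as higher and 10.8% as lower. At an unadjusted p under 0.05 the numbers were 22 members and 36.8% of all genes. A change of at least 2-fold was called in 9 members that rose and 3 that fell, against 6.24% and 3.46% of all genes tested. Some called members passed the low-count filter through their higher group alone, and could be tested only because that group was high. These were Kcnmb1, Kcnh1, Kcnj8 and Kcna4 through the C/EBPβ libraries, and Kcna3 through the empty vector libraries. Kcnj12 also needed its empty vector libraries, since its 5 counts in C/EBPβ replicate 1 lay below the filter. The counts of calls, here and by class, include all of these members. The values of the 2 groups did not overlap in 25 of the 29 tested members, and in 66.2% of all genes tested. The median log2 fold change was 0.67 over the tested members and 0.00 over all genes tested. It rests on the filter: with no filter on low counts it was 0.26, and with at least 5 CPM in 2 libraries, which left 10 members, it turned to -0.23 with 4 members higher and 3 lower. The highest called rises were in a BK accessory subunit, Kcnmb1, and a voltage-gated channel, Kcnh1. The called falls included 3 of the 4 members with the highest level per length in the control cells, namely Kcnn4, Kcnf1 and Kcnk5.

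By class, 4 of 5 tested inward rectifiers rose and 1 fell, out of 15 members. Of 10 tested voltage-gated pore subunits, out of 40, 5 rose, 2 fell and 3 did not pass the test. Among 3 tested calcium- or sodium-activated channels, out of 8, 1 rose and 1 fell. Of 4 tested tandem-pore channels, out of 14, none rose and 1, Kcnk5, fell. Of 6 tested accessory subunits, out of 16, 2 rose and 1 fell. The remaining 5 members are RNAs that do not code for protein and carry the symbol of a channel gene, and the 1 that was tested, Kcnq1ot1, rose. Members that were not tested reached at most 30 counts in any library.

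**Figure D1:**
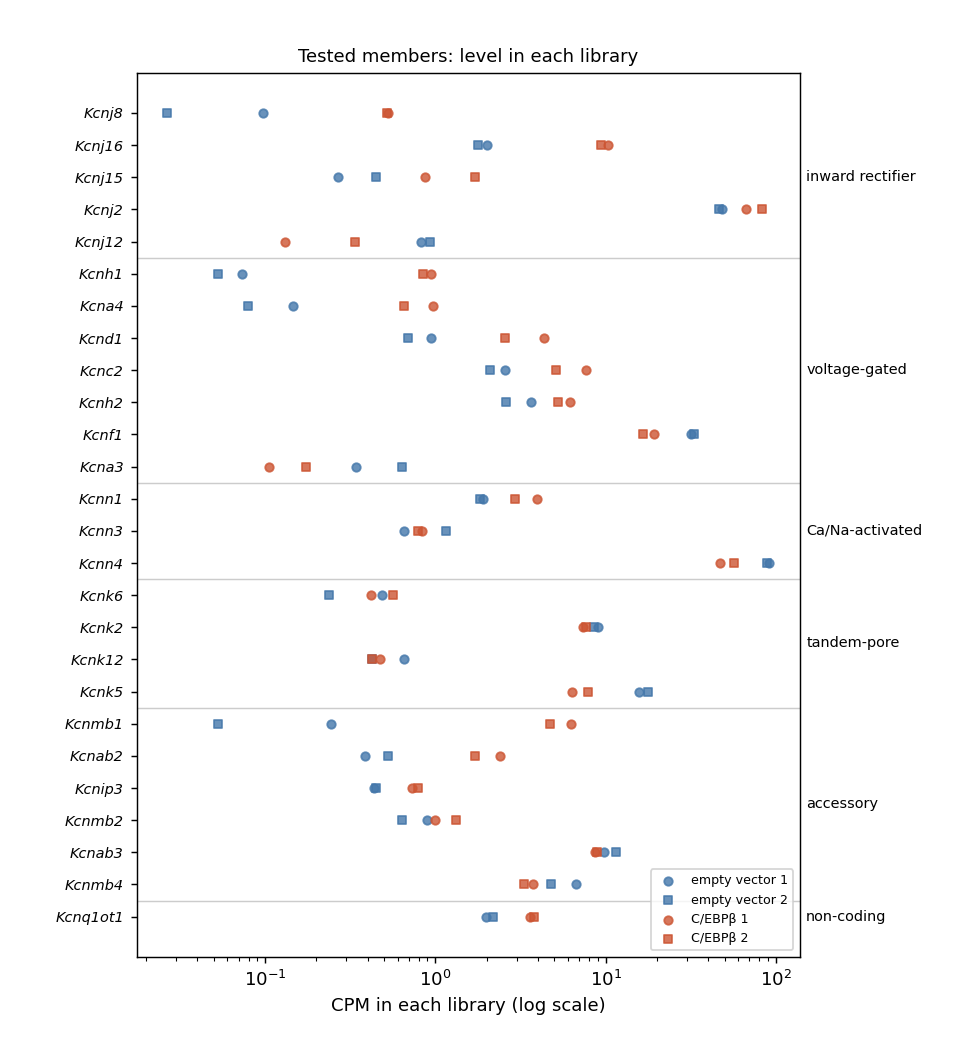
Level of 26 tested members in each of the 4 libraries, in CPM on a log axis, with members grouped by channel class. Blue marks are empty vector, red marks C/EBPβ, circles replicate 1 and squares replicate 2. Kcnn4 and Kcnj2 sit at the right, at 46.7 to 91.7 CPM in every library, and the empty vector marks of Kcnmb1, Kcnh1 and Kcnj8 sit far to the left of their C/EBPβ marks.

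The DNA just ahead of a start site of 4 members is shown for the changes that stand out below. Each sequence is the 250 bases before a transcription start in RefSeq (build GRCm38.p6), printed 5′ to 3′ on the strand of the gene. Kcnmb1 (chr11:33962763-33963012, plus strand) had the highest called rise, Kcnj2 (chr11:111065914-111066163, plus strand) the highest level per length with C/EBPβ, and Kcnj8 (chr6:142571615-142571864, minus strand) rose from almost no counts. In these 3 windows capitals mark CG dinucleotides, of which Kcnmb1 has 1, Kcnj8 has 6 and Kcnj2 has 14. Kcnj12 (chr11:61065554-61065803, plus strand), which fell, is shown because it is the called member whose window holds the word TTGCNNAA, a core of C/EBP binding sites. In the Kcnj12 sequence capitals mark that word, which begins 26 bases before the start. That start lies inside the annotated Kcnj12 gene (chr11:61022564-61071131), so the Kcnj12 window precedes an internal start and not the first one.
Kcnmb1: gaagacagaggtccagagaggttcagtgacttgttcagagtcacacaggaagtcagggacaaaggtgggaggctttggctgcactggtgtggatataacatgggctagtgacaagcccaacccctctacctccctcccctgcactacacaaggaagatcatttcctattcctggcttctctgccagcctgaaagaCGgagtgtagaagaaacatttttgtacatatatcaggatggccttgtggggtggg
Kcnj2: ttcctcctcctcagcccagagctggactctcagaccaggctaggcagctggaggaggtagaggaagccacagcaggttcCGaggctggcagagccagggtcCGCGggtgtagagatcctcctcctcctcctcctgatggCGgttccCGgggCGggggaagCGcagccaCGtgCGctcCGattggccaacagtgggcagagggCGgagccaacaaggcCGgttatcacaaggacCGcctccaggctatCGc
Kcnj8: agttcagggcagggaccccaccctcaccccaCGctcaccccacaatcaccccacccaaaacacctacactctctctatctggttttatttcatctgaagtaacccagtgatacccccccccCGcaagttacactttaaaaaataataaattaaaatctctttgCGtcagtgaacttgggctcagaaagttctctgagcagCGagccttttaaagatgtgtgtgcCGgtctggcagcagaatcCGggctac
Kcnj12: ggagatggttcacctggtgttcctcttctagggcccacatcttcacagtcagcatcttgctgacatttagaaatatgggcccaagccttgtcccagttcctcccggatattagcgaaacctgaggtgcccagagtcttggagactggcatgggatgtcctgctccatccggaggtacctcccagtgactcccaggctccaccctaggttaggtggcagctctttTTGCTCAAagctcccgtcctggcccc

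The word was searched on both strands, that is as TTGCNNAA or TTNNGCAA, in the windows of all genes with a RefSeq entry. Of the 98 members, 71 were matched, and 7 of them (9.86%) held the word in at least 1 window, compared with 10.8% of all 27025 genes. It was found in 0 of 12 matched members that rose, in 1 of 6 that fell, Kcnj12, and in 1 of 5 matched members that were tested and not called, Kcnk2. The word in Kcnj12 is a match of letters in this window and no more. The median number of CG dinucleotides, counted in the richest window of each gene, was 10 over the matched members and 6 over all genes. Among matched members that rose the median was 8.5, among those that fell 12.5, and among tested members that were not called 16. Choosing the richest window favours genes with several windows. Counted over all windows instead, the median was 7.5 for the members and 6 for all genes.

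Inward rectifiers pass potassium more easily into the cell than out of it and clamp the resting potential. Kcnj2, which encodes the strong inward rectifier Kir2.1 of muscle and heart, was read at 48.2 and 46.7 CPM with empty vector and at 67.1 and 83.5 CPM with C/EBPβ. Both C/EBPβ libraries lay above both controls, and the rise was 1.59-fold (log2 fold change 0.67 ± 0.11 SE, adjusted p = 0.00314). Kcnj16 encodes a subunit, Kir5.1, that carries current when paired with another rectifier. Its level was 2.02 and 1.77 CPM with empty vector and 10.4 and 9.37 CPM with C/EBPβ, a mean of 1.89 ± 0.175 against 9.89 ± 0.732 CPM (SD, n = 2). The libraries of each group lay close together and far from the other group, and the rise was 5.19-fold (log2 2.38 ± 0.16 SE, adjusted p = 4.24e-05). Kcnj16 (chr11:110968033-111027968) and Kcnj2 (chr11:111066164-111076821) lie on the plus strand with 38.2 kb between them and 0 annotated genes in the gap. Known partners of Kir5.1 are the products of Kcnj10 and Kcnj15. Kcnj10 had 0 counts in all 4 libraries, while Kcnj15 rose from 0.267 and 0.449 CPM to 0.865 and 1.71 CPM. The Kcnj15 fold was 3.77 (log2 1.91 ± 0.42 SE, adjusted p = 0.012). Its 2 C/EBPβ libraries differed from each other, and leaving out empty vector replicate 1 ended the call (adjusted p = 0.0953), as did leaving out C/EBPβ replicate 2 (log2 1.27, adjusted p = 0.0545).

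Kcnj8 encodes Kir6.1, the pore of a channel that closes when ATP is high and that is known from vascular smooth muscle and pericytes. It had 4 and 1 counts with empty vector and 20 and 48 counts with C/EBPβ, so its call (adjusted p = 0.00394) rests on 5 control counts. Its fold depends on which control is used, with a fitted log2 of 2.40 without empty vector replicate 2 and 4.19 without replicate 1. Without replicate 1, the ratio of counts was 19.5 (3.39 to 783, 95% counting interval). The sulphonylurea receptor that pairs with Kir6.1 in those cells is the product of Abcc9, whose gene lies 16.2 kb away on the same strand. Abcc9 had 1, 1, 7 and 8 counts in the 4 libraries in the order empty vector 1 and 2, C/EBPβ 1 and 2, too few to be tested. Kcnj12, which encodes the strong rectifier Kir2.2, was the rectifier that fell, from 0.827 and 0.925 CPM to 0.131 and 0.337 CPM (log2 -1.72 ± 0.39 SE, adjusted p = 0.0142). Its counts were 34, 35, 5 and 31, and leaving out either empty vector library ended the call (adjusted p = 0.0648 for replicate 1 and 0.0805 for replicate 2). Without C/EBPβ replicate 2 the log2 fold change was -2.71. Kcnj3, a rectifier opened by G proteins, had 0, 0, 2 and 12 counts and was not tested. Set against 3 counts over the control group, that is at least 2.80-fold higher, and without either empty vector library the bound fell to 1.34 and 1.46.

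Summed marker levels moved with the groups in several lists, and all of these were measured in bulk RNA, where fewer cells of a type and less RNA per cell cannot be told apart. The smooth muscle and mural list of 12 genes summed to 3175 and 2749 CPM with empty vector and to 5313 and 4133 CPM with C/EBPβ, and of its 9 tested genes 5 rose and 1 fell. The contractile gene Cnn1 rose from 2.38 and 1.16 CPM to 61.6 and 33.0 CPM, and Tagln from 101 and 58.8 CPM to 434 and 239 CPM. Acta2, at 883 CPM or more in every library, rose as well, as did Pdgfrb and Mcam, while Des fell. Of the genes that define these cells, Myh11 had 1, 1, 13 and 14 counts and Rgs5 had 0, 0, 9 and 6. The fibroblast list of 9 genes summed to 2163 and 2454 CPM and to 6800 and 5983 CPM, with 4 of 7 tested genes higher and 1 lower. The neuron list of 12 genes summed to 764 and 845 CPM with empty vector and to 198 and 242 CPM with C/EBPβ, with 6 of 7 tested genes lower and Rbfox3, Snap25 and Elavl4 at 0 in every library. The Schwann and glial list summed to 30.1 and 37.1 CPM and to 5.51 and 8.26 CPM, with Sox10 and Foxd3 at 0. Endothelial genes summed to at most 1.26 CPM and leukocyte genes to at most 7.96 CPM in any library, both a little higher with C/EBPβ. The part of these lists in the changes of Kcnj8, Kcnmb1 and the other members was not tested.

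Voltage-gated pore subunits open on depolarisation. Kcnh1, the ether-a-go-go channel that acts early in the differentiation of human myoblasts, rose from 3 and 2 counts with empty vector to 36 and 78 counts with C/EBPβ. On the CPM scale that was 0.0729 and 0.0529 against 0.944 and 0.849. The libraries within each group lay close together, and the fitted rise was 13.6-fold (log2 3.76 ± 0.43 SE, adjusted p = 4.75e-04). Because the controls held few counts, the ratio of counts was 16.4 (4.43 to 137, 95% counting interval) with empty vector replicate 2 as the control and 11.9 (3.97 to 58.5) with replicate 1. Kcnh2, of the same family and known for the repolarising current of the heart, rose less, from 3.67 and 2.59 CPM to 6.21 and 5.29 CPM (log2 0.87 ± 0.20 SE, adjusted p = 0.016). Leaving out empty vector replicate 2 ended that call (adjusted p = 0.0699).

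Kcna4 and Kcnd1 encode channels that inactivate fast after opening, and both rose. Kcna4 had 6 and 3 counts with empty vector and 37 and 60 with C/EBPβ (log2 2.75 ± 0.46 SE, adjusted p = 0.00308). Kcnd1 went from 0.948 and 0.687 CPM to 4.33 and 2.57 CPM, a rise of 4.1-fold (log2 2.04 ± 0.32 SE, adjusted p = 0.00241). In both genes C/EBPβ replicate 1 was the highest library, and neither gene's groups overlapped. Kcnc2, which encodes a delayed rectifier that opens and closes fast in neurons, rose from 2.58 and 2.09 CPM to 7.63 and 5.13 CPM (log2 1.43 ± 0.23 SE, adjusted p = 0.00289).

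Kcnf1 was the voltage-gated member with the highest level. It encodes an electrically silent subunit that forms no channel alone and modifies the gating of other voltage-gated subunits. Kcnf1 fell from 31.9 and 33.2 CPM to 19.2 and 16.7 CPM, a mean of 32.5 ± 0.955 against 17.9 ± 1.8 CPM (SD, n = 2). The change was 1.82-fold (log2 -0.86 ± 0.11 SE, adjusted p = 7.26e-04). Kcna3, a channel known from lymphocytes, fell from 0.34 and 0.634 CPM to 0.105 and 0.174 CPM (log2 -1.66 ± 0.46 SE, adjusted p = 0.0322). Kcna3 kept its call in 7 of 11 alternatives, the fewest among the called members. Its adjusted p was 0.137 in DESeq2, 0.0912 after the deepest library was thinned, 0.216 without empty vector replicate 2 (log2 -1.17) and 0.0792 without C/EBPβ replicate 1.

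**Figure D2:**
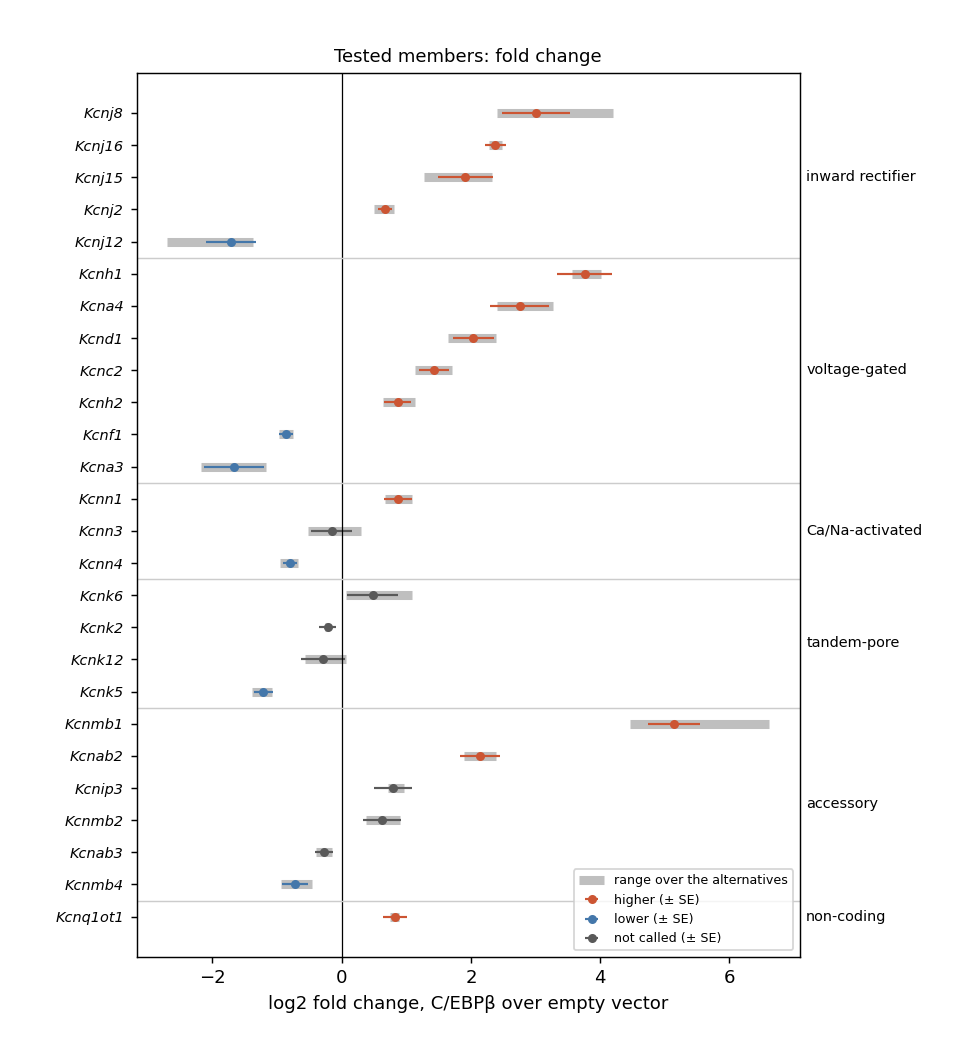
Fitted log2 fold change of C/EBPβ over empty vector for 26 tested members, with the standard error as a thin line and, as a thick grey line, the lowest and highest value over the 11 or 12 alternative analyses that tested the gene. Red points were called higher, blue points lower and grey points were not called. Kcnmb1 at 5.14 is the point farthest to the right, Kcnj12 and Kcna3 are the farthest to the left, and the upper ends of the grey lines of Kcnmb1 and Kcnj8 rest on 2 and 1 control counts.

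Channels opened by calcium were led by Kcnn4, the intermediate-conductance channel that drives potassium efflux in cells that do not fire and is known from proliferating cells. Kcnn4 was read at 91.7 and 89.3 CPM with empty vector and at 46.9 and 56.7 CPM with C/EBPβ, a mean of 90.5 ± 1.68 against 51.8 ± 6.95 CPM (SD, n = 2). It fell 1.74-fold (log2 -0.80 ± 0.10 SE, adjusted p = 8.71e-04), with no overlap of the groups. Kcnn1, a small-conductance relative, rose from 1.9 and 1.82 CPM to 3.96 and 2.95 CPM (log2 0.87 ± 0.22 SE, adjusted p = 0.0196). The Kcnn1 call ended when empty vector replicate 1 (adjusted p = 0.0740), empty vector replicate 2 (0.0806) or C/EBPβ replicate 1 (0.0976) was left out. Kcnn3, the other small-conductance channel tested, was at 0.656 and 1.16 CPM against 0.839 and 0.794 CPM and was not called (log2 -0.15 ± 0.32 SE, adjusted p = 0.773). Without empty vector replicate 2 its value changed sign to 0.30 (adjusted p = 0.576). Kcnt2, a channel opened by intracellular sodium, had 0, 0, 9 and 30 counts and did not enter the test. Against 3 counts over the control group that is at least 7.81-fold higher, and the bound was 3.74 and 4.07 without empty vector replicates 1 and 2. With no filter on low counts Kcnt2 was called (edgeR adjusted p = 2.22e-06). That setting gave far smaller adjusted p values to other called members too. Kcnj16 had 5.73e-38 there and 4.24e-05 in the main fit, at a log2 of 2.38 in both. The Kcnt2 value therefore cannot be compared with those of the main fit.

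Tandem-pore channels are open at rest and are set by pH, stretch and lipids. Kcnk5, the pH-sensitive TASK-2, was the highest of them with empty vector at 15.7 and 17.7 CPM, and was at 6.34 and 7.91 CPM with C/EBPβ. The groups were far apart and the fall was 2.32-fold (log2 -1.21 ± 0.14 SE, adjusted p = 5.82e-04). Kcnk2, the stretch-sensitive TREK-1, was at 8.97 and 8.59 CPM against 7.42 and 7.65 CPM and did not pass the test (log2 -0.22, adjusted p = 0.255). Kcnk6 and Kcnk12 were below 1 CPM in every library, their groups overlapped, and neither was called (log2 0.48 and -0.29, adjusted p = 0.433 and 0.578). Of the other 10 tandem-pore members, 6 had 0 counts in every library and 4 reached at most 8 counts.

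Accessory subunits held the highest called rise of the family. Kcnmb1 encodes the β1 subunit of the BK channel, which raises its calcium sensitivity and is a known smooth muscle gene. It had 10 and 2 counts with empty vector and 238 and 432 with C/EBPβ, that is 0.243 and 0.0529 CPM against 6.24 and 4.7 CPM. Both C/EBPβ libraries were far above both controls, and the fitted rise was 35.2-fold (log2 5.14 ± 0.40 SE, adjusted p = 8.31e-05). Its size depends on the controls, with a fitted log2 of 4.46 without empty vector replicate 2 and 6.62 without replicate 1. Without replicate 1, the ratio of counts was 96.3 (26.6 to 797, 95% counting interval). Kcnmb4, the β4 subunit known from neurons, fell from 6.73 and 4.81 CPM to 3.75 and 3.3 CPM (log2 -0.72 ± 0.20 SE, adjusted p = 0.0306). That call ended when empty vector replicate 1 (log2 -0.46, adjusted p = 0.160) or C/EBPβ replicate 2 (adjusted p = 0.0525) was left out. Kcnmb2, the β2 subunit, was at 0.9 and 0.634 CPM against 0.996 and 1.33 CPM and was not called (log2 0.62 ± 0.29 SE, adjusted p = 0.16).

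The ratio of Kcnmb1 to Kcnmb4 in CPM was 0.0361 and 0.0110 in the empty vector libraries and 1.66 and 1.43 in the C/EBPβ libraries, so Kcnmb4 had the higher count of the pair in each control and Kcnmb1 in each C/EBPβ library. The pore subunit that both bind, Kcnma1, was hardly read. Its counts were 1, 0, 6 and 3, too few to be tested, and the ratio of the groups was 5.40 with a 95% counting interval from 0.749 to 237. Without C/EBPβ replicate 2 the ratio was 12.2 (1.48 to 560), without C/EBPβ replicate 1 it was 2.56 (0.205 to 134), without empty vector replicate 2 it was 2.82 (0.390 to 123), and without empty vector replicate 1 the bound was 0.862, so its direction was not resolved.

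**Figure D3:**
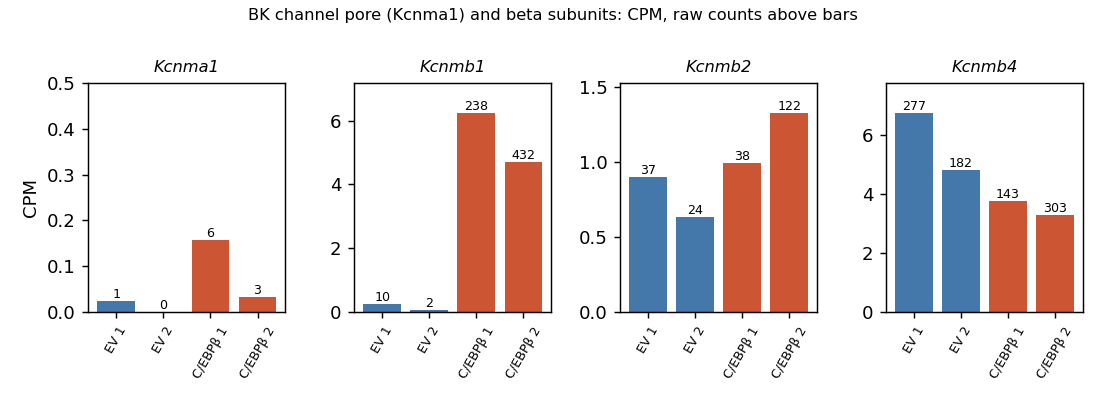
BK channel subunits in each library, as bars of CPM from 0 with the raw count above each bar, each gene on its own axis. Blue bars are empty vector (EV) and red bars C/EBPβ. Kcnmb1 goes from 10 and 2 counts to 238 and 432, Kcnmb4 is lower in both C/EBPβ libraries, Kcnmb2 was not called, and the pore gene Kcnma1 holds at most 6 counts.

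Among cytosolic subunits, Kcnab2, the β2 partner of the Shaker-type channels such as those of Kcna3 and Kcna4, rose from 0.389 and 0.529 CPM to 2.41 and 1.71 CPM (log2 2.14 ± 0.31 SE, adjusted p = 0.00152). Kcnab3 of the same family was higher in level, at 9.77 and 11.5 CPM against 8.7 and 8.88 CPM, and was not called (log2 -0.27 ± 0.13 SE, adjusted p = 0.176). Kcnab1 had 4, 11, 2 and 11 counts. Kcnip3, a calcium-binding partner of the Kcnd channels, was at 0.438 and 0.449 CPM against 0.734 and 0.794 CPM and did not pass the test (log2 0.79 ± 0.29 SE, adjusted p = 0.0832). Kcne4, a small subunit with 1 membrane span, had 6, 5, 7 and 25 counts and was not tested.

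Kcnq1ot1 is an imprinted RNA that silences genes in its neighbourhood and runs antisense to the channel gene Kcnq1, inside whose span it lies (chr7:143212155-143296549, minus strand). It rose from 1.99 and 2.19 CPM to 3.62 and 3.78 CPM (log2 0.82 ± 0.18 SE, adjusted p = 0.0118), a call that ended when empty vector replicate 1 was left out (adjusted p = 0.0588). Kcnq1 itself had 1, 3, 3 and 4 counts. The counting used strand, per the file headers, so reads of this pair were assigned by direction. Another RNA of this kind, Kcnmb4os2, overlaps the start of Kcnmb4 on the other strand and had 8, 9, 3 and 10 counts.

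Dividing by exonic length gives the make-up of potassium channel RNA within a library, as CPM per kilobase (RPKM). With empty vector the order was Kcnn4 at a mean of 17.7 RPKM, Kcnj2 at 8.71, Kcnf1 at 6.80, Kcnk5 at 4.96 and Kcnab3 at 3.72. With C/EBPβ it was Kcnj2 at 13.8 RPKM, Kcnn4 at 10.1, Kcnf1 at 3.75, Kcnab3 at 3.07, Kcnj16 at 2.51 and Kcnk5 at 2.12. Kcnj2 and Kcnn4 thus changed places, their RPKM ratio being 0.494 and 0.491 with empty vector and 1.34 and 1.38 with C/EBPβ. In each group the libraries of these leading genes did not overlap between neighbours in the order, although Kcnj16 (2.64 and 2.38 RPKM) and Kcnk5 (1.89 and 2.35 RPKM) came close with C/EBPβ. Below them the order is not resolved, since Kcnmb1, Kcnh2, Kcnmb4 and Kcnc2 lay between 0.827 and 1.49 RPKM in the C/EBPβ libraries with overlapping values. Kcnmb1 moved from rank 28 to rank 8.

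The summed RPKM of the protein-coding members was 51.3 and 51.2 with empty vector and 45.3 and 48.6 with C/EBPβ, while its distribution over the classes shifted. Inward rectifiers made up 19.1% and 18.6% of this sum with empty vector and 34.1% and 37.8% with C/EBPβ. Calcium- or sodium-activated channels made up 35.9% and 35.2% against 22.5% and 24.4%. Tandem-pore channels went from 13.8% and 14.4% to 8.44% and 8.94%, whereas the shares of voltage-gated subunits (19.3% and 20.1% against 20.1% and 15.8%) and accessory subunits (11.9% and 11.8% against 15.0% and 13.0%) lay closer together. The 5 most abundant members with empty vector were Kcnn4, Kcnj2, Kcnf1, Kcnk5 and Kcnab3. Together they held 80.9% and 82.6% of the sum with empty vector and 67.2% and 72.8% with C/EBPβ. With C/EBPβ, Kcnj16 ranked above Kcnk5, so this set is not the top 5 there. These shares are given without a test.

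**Figure D4:**
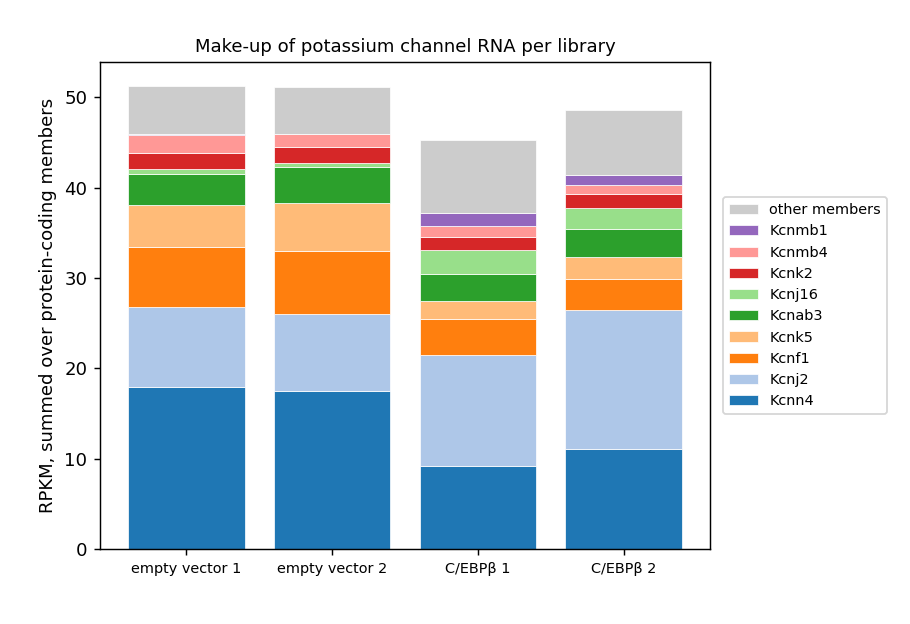
Summed RPKM of the protein-coding members in each library, stacked by gene from 0, with the 9 named members in colour and all others in grey. The full bars reach 45.3 to 51.3. The Kcnn4 segment is the largest in both empty vector libraries and the Kcnj2 segment in both C/EBPβ libraries.

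Genes that work with potassium channels were looked at through 3 lists with 57 genes in all, of which 37 were tested, 4 rose and 9 fell, beside the 24.9% called over all genes tested. Among 13 partners of potassium channels, 4 were tested and 1 fell, Tmem38a, which encodes the TRIC-A channel that balances charge across the sarcoplasmic reticulum. It went from 20.0 and 19.4 CPM to 13.0 and 12.5 CPM (log2 -0.63, adjusted p = 0.00319). Amigo1, a membrane protein that binds voltage-gated channels, was not called (log2 -0.35, adjusted p = 0.0820). Abcc8, the receptor of the pancreatic type of ATP-sensitive channel, had 13, 8, 4 and 6 counts.

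Of the other cation and chloride channels of the muscle membrane, 6 of 19 tested genes fell and 2 rose, and the median log2 fold change was -0.22. Of these, Cacna1g passed the low-count filter through the C/EBPβ libraries alone. Scn4a, with 12, 15, 3 and 7 counts, passed through the empty vector libraries alone. Cacna1s also needed its empty vector libraries, since its 9 counts in C/EBPβ replicate 1 lay below the filter. The counts of calls over the lists include these genes. Cacna1s, the voltage sensor of excitation and contraction, fell from 1.41 and 1.77 CPM to 0.236 and 0.457 CPM (log2 -2.07, and -2.73 without C/EBPβ replicate 2). Cacng1, a subunit of the same calcium channel complex, fell from 121 and 119 CPM to 59.9 and 69.3 CPM (log2 -0.89). Ano5, a chloride channel relative needed for membrane repair, fell by 1.75 on the log2 scale, a value of -2.37 without C/EBPβ replicate 2. Cacna1g, a T-type calcium channel, rose from 6 and 3 counts to 25 and 31 counts (log2 1.98), a call lost in DESeq2 and without any 1 of 3 libraries, where the adjusted p reached 0.161. Of 14 tested potassium pumps and cotransporters, 2 fell and 2 rose. Fxyd5, a pump regulator, rose from 35.3 and 25.7 CPM to 64.5 and 69.0 CPM (log2 1.13). Slc24a3, an exchanger of sodium, calcium and potassium, rose from 18.1 and 12.9 CPM to 42.5 and 42.0 CPM (log2 1.45).

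The authors' deposited table of their own comparison lists 44 of the 98 members and gives an adjusted p for 36. Among the members in the authors' deposited table, 14 are higher and 6 lower at an adjusted p of 0.05, where 26.0% of its 16596 genes pass. All 29 members tested here have the same sign there, and 18 are called in both. Kcnt2 (log2 2.54, adjusted p = 0.00261) is called in the authors' deposited table and not here, while Kcna3 was called here and has an adjusted p of 0.17 in the authors' deposited table. The base means of the authors' deposited table exceed the counts of these libraries for some members, such as Kcnk13, with a base mean of 78.1 and a highest count here of 3. Which libraries entered that table is not stated in the labels or the file, so it cannot be read as an independent repeat.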

How the data were processed

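RNA of 4 libraries was sequenced on an Illumina HiSeq after strand-specific library preparation, per the labels' protocols. The deposited values are counts of fragments per gene from featureCounts 1.5.1 in reverse-stranded paired mode on GENCODE M12, without multi-mapping or ambiguous reads, per the file headers, so near-identical genes can be under-counted. The submitters' processing notes name HISAT2 2.0.4, GRCm38, featureCounts 1.4.6 and DESeq2, and the difference in featureCounts version was not settled. The authors' deposited table holds, per member, a signal (the base mean), log2 fold changes with their errors, a score (the test statistic) and p-values, which were described and not retested.

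Members and gene lists were chosen with earlier results of these data known. Groups came from the sample titles, and 49326 of 49585 identifiers matched a symbol. Genes passing filterByExpr (minimum count 10, minimum total 15) entered edgeR (version 4.0.16, R 4.3.3) and its quasi-likelihood test, with TMM factors, no covariate and Benjamini-Hochberg adjustment over 15078 genes, and called at 0.05. CPM of single genes used TMM factors, and RPKM also the exonic length in the file. Summed marker CPM, the value of 1 count, bounds and ratios used library totals. A fold against a group at 0 is a bound against 3 counts over the group. Bounds and 95% intervals (exact Clopper-Pearson limits of the share of counts) cover counting error only. Named were all called members, tested members not called by level or a 2-fold difference, untested members reaching 10 counts, and up to 4 called genes per direction in each list, and some genes that this rule covers are not reported here. Alternatives were 2 other scalings, 2 other filters, DESeq2 1.42.0, voom of limma 3.58.1, a thinned deepest library, a replicate block and each library left out. Replicates of a group differed by more than counting noise.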

Additional observations from a re-analysis of the deposited data

How the results depend on the processing

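The 13 rises and 6 falls among the members were the same 19 genes under both other scalings and limma-voom. DESeq2 and the thinned library called 18. Leaving out 1 library gave 15 to 18 called members, and 2493 to 3462 genes in all against 3759. Of the 19 called members, 12 were called under every alternative that tested them. A filter of at least 5 CPM in 2 libraries tested 10 members and called 7, since fewer genes entered, and called 8 of the partner and transport genes in place of 13, which went to 8 to 12 without 1 library. With no filter 22 of 69 members were called, beside 16.9% of all 26623 genes tested in that setting. Without empty vector replicate 1, Kcnk12 reversed to a log2 of 0.063 (adjusted p = 0.940, range without 1 library -0.57 to 0.063), and without empty vector replicate 2, Kcnn3 reversed to 0.30 (range -0.52 to 0.30). Neither was called, and the cause was not tested.

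Replicate numbers are shared by the groups, but the labels do not say that they pair the libraries, and the deviations of same-numbered libraries correlated at 0.147 over 15078 genes with only 2 pairs. A replicate block called 22 members, 15 partner and transport genes, and 4536 genes in all. Depth limits the members under about 10 counts, where 1 control library sets the size of a fold.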
